A study of Homo sapiens with 12 samples.

Results

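The comparison described here was of BYL719 (alpelisib) against its vehicle DMSO in NF1 knockout (NF1KO) T47D cells, across all expressed genes. Its members were 5 of the 11 libraries measured, namely the NF1KO libraries given 3 µM BYL719 for 48 h (3 libraries) and those given DMSO for 48 h (2 libraries), chosen by their labels. T47D is an established luminal, estrogen receptor-positive breast cancer line, and BYL719 inhibits PI3K alpha, whose gene PIK3CA carries an activating mutation in T47D. The other libraries were CTRL T47D cells with DMSO (3 libraries) or 3 µM BYL719 (3 libraries) for 48 h. They are used below to show where NF1KO differed, and they enter the NF1KO p-values through the shared filter, scaling and estimate of the spread. NF1KO DMSO replicate 1, 1 of 12 labelled samples, was not analysed here. Whether the knockout line is a single clone, and whether replicates came from separate cultures, is not given in the sources used here, so p-values measure the spread between these libraries and a difference between the lines cannot be told apart from other differences between them.

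PI3K alpha turns signals from insulin and ERBB receptors into the lipid PIP3, which activates AKT. AKT holds FOXO transcription factors out of the nucleus and, through mTORC1, favours amino acid uptake, lipid synthesis and glucose use. When PI3K is inhibited, FOXO factors are known to raise genes such as IRS2 and ERBB3, a feedback on the pathway's own receptors. Neurofibromin, the product of NF1, is a GTPase-activating protein that turns RAS off, and RAS can activate both PI3K and the ERK cascade.

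Libraries held 53283945 to 60148876 counts. NF1 stood at 0.400 to 0.891 CPM (counts scaled to the TMM-adjusted library size) in the NF1KO libraries and at 147 to 289 CPM in CTRL. All 10 luminal epithelial markers, among them ESR1, GATA3 and KRT8, were above 1 CPM in every library, and their summed level was 11295 to 11502 CPM in NF1KO DMSO and 10003 to 11027 CPM in NF1KO BYL719. The 10 leukocyte markers summed to 2.88 to 3.58 CPM over the NF1KO libraries, and the 11 fibroblast and endothelial markers to 26.4 and 26.6 CPM in DMSO and 17.5 to 22.4 CPM in BYL719. COL1A1 alone of those 11 was above 1 CPM, FAP was at 0 in every library, and the leukocyte marker PTPRC was at 0 in every NF1KO library; the part of these markers in the results was not tested. Ribosomal RNA genes took 8.66% and 10.1% of counts in NF1KO DMSO and 10.7% to 12.1% in NF1KO BYL719, so that every BYL719 library was above both DMSO libraries. The first replicates of CTRL DMSO and CTRL BYL719 stood apart from the rest of their line, at 24.1 and 26.0 on the third principal component of log2 CPM (7.07% of the variance) against -17.6 to -10.7 for the other CTRL libraries. They enter the NF1KO values through the shared estimate of the spread.

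In NF1KO cells, FOXO targets and secretory genes were among those that rose with BYL719, and genes of cystine import, amino acid supply and the pentose phosphate pathway among those that fell. Of 16081 genes tested, 1652 (10.3%) were higher and 1362 (8.47%) lower in BYL719 (edgeR quasi-likelihood test, 2-sided, Benjamini-Hochberg adjusted p under 0.05), in all 18.7%. The median log2 fold change was 0.56 among genes called higher and -0.40 among genes called lower, and 340 (2.11%) rose and 73 (0.454%) fell by more than 2-fold. Over all genes tested the median was 0.01. The BYL719 and DMSO libraries did not overlap in 54.7% of all genes tested and in 3013 of the 3014 genes called. A lack of overlap given below for a called gene thus adds little to its call. The counts of genes called were smaller without any single NF1KO library. Leaving out NF1KO DMSO replicate 2 gave 634 higher and 446 lower, leaving out its replicate 3 gave 474 and 321, and leaving out NF1KO BYL719 replicate 2 gave 1024 and 774. Without both first CTRL replicates, 2760 were higher and 2546 lower. The genes past 2-fold numbered 207 and 46 without DMSO replicate 2, and 168 and 36 without DMSO replicate 3.

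**Figure D1:**
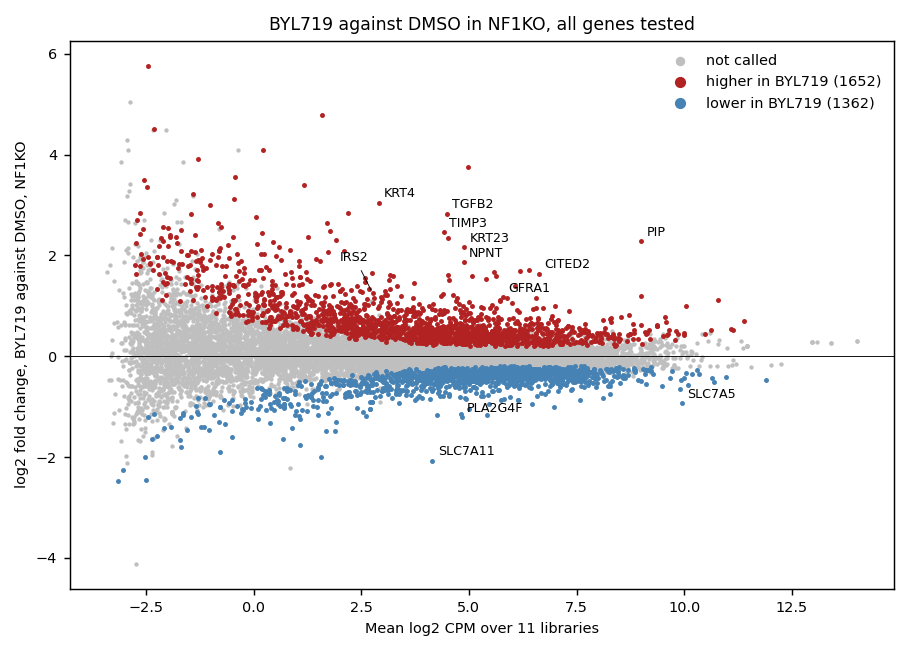
Each point is 1 of 16081 genes, with the mean log2 CPM over all 11 libraries on the x axis and the log2 fold change of BYL719 against DMSO in NF1KO on the y axis. Red points are the 1652 genes called higher and blue points the 1362 called lower; KRT4 lies at 3.04 and SLC7A11 at -2.08.

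IRS2 (Entrez 8660, chromosome 13, 109752695 to 109786583, GRCh38), an adaptor that couples the insulin receptor to PI3K, measured 4.56 and 4.20 CPM in DMSO and 9.56, 11.8 and 9.89 CPM in BYL719. The log2 fold change was 1.25 ± 0.12 (SE; adjusted p = 7.67e-05), and the groups did not overlap. CITED2 (Entrez 10370, chromosome 6, 139371807 to 139374648), a transcriptional co-regulator that binds CBP and p300, went from 30.0 and 27.9 CPM to 105, 90.2 and 76.0 CPM, a log2 fold change of 1.64 ± 0.12 (adjusted p = 1.95e-05). A keratin of stratified mucosa, KRT4 (Entrez 3851, chromosome 12, 52806549 to 52814116), measured 0.258 and 0.308 CPM in DMSO and 2.88, 2.15 and 2.02 CPM in BYL719, a log2 fold change of 3.04 ± 0.28 (adjusted p = 7.67e-05). SLC7A11 (Entrez 23657, chromosome 4, 138164097 to 138242349), the cystine importer that feeds glutathione synthesis, went the other way, from 45.5 and 46.2 CPM to 14.3, 9.30 and 9.05 CPM, a log2 fold change of -2.08 ± 0.31 (adjusted p = 0.00104). For these 4 genes the difference of effect between the lines lay between -1.01 and 0.12 and did not pass the test (adjusted p of 0.143 to 0.865).

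**Figure D2:**
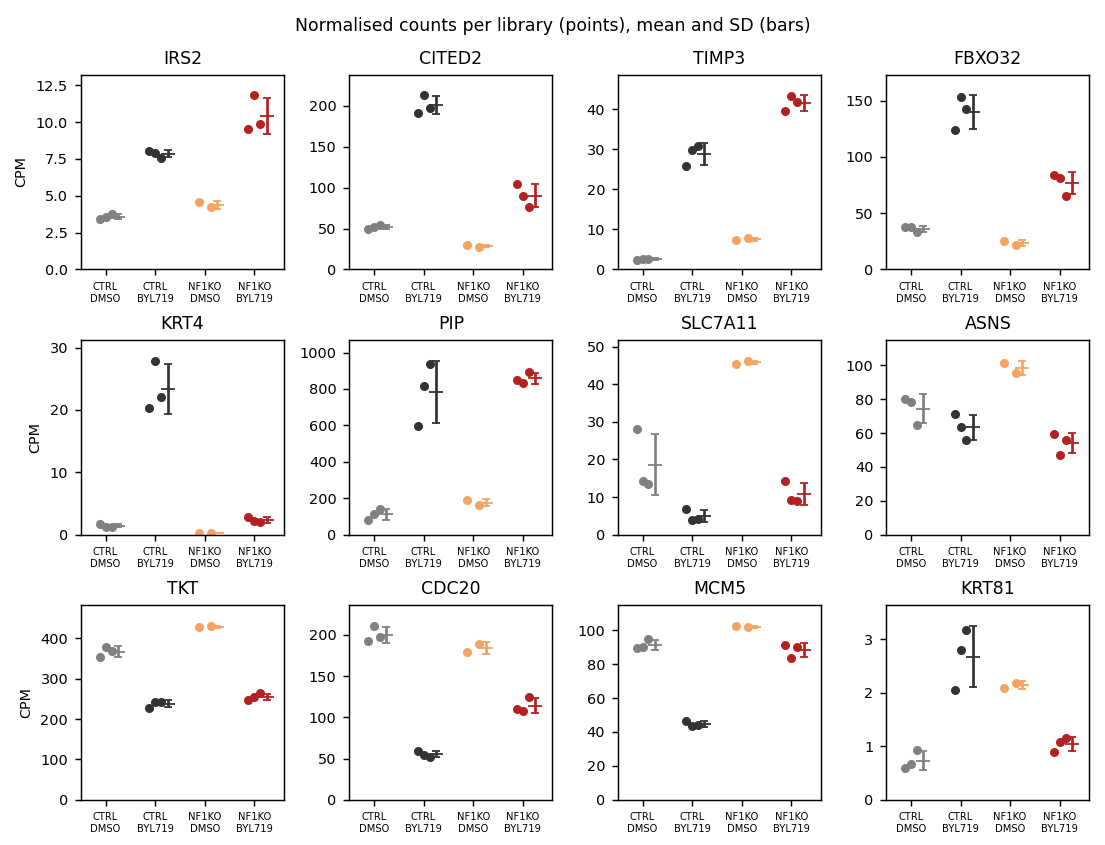
Each panel gives 1 gene, with CPM on the y axis from 0 and the 4 groups on the x axis; points are libraries and bars the mean and SD. In NF1KO the BYL719 libraries lie above both DMSO libraries for IRS2, CITED2, TIMP3, FBXO32, KRT4 and PIP and below them for SLC7A11, ASNS, TKT, CDC20, MCM5 and KRT81.

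Of 23 FOXO targets and PI3K feedback genes tested, 18 were called higher and 0 lower, with a median log2 fold change of 0.52, beside 10.3% and a median of 0.01 over all genes tested. With either NF1KO DMSO library left out, 14 were called. This list and those below were chosen with earlier results of these data known, so their shares are descriptions and not tests. FBXO32, a ubiquitin ligase of muscle atrophy, stood at 25.6 and 22.0 CPM in DMSO and 83.6, 81.5 and 65.2 CPM in BYL719, a log2 fold change of 1.69 ± 0.13 (adjusted p = 2.62e-05). KLHL24, a ubiquitin ligase adaptor for keratin, went from 21.3 and 17.6 CPM to 62.8, 61.4 and 52.4 CPM (1.60 ± 0.13, adjusted p = 2.62e-05). The groups of libraries were apart for FBXO32 and KLHL24, by the naming rule.

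Receptors and adaptors of the insulin and ERBB pathway were part of that list. INSR, the insulin receptor, measured 13.6 and 12.8 CPM in DMSO and 24.2, 26.1 and 24.2 CPM in BYL719, a log2 fold change of 0.91 ± 0.10 (adjusted p = 0.000146). IRS1, the other main insulin receptor substrate, rose by 0.73 ± 0.08 (adjusted p = 0.000140) and ERBB3, which recruits PI3K directly, by 0.52 ± 0.07 (adjusted p = 0.000570). PIK3IP1, a membrane protein that inhibits PI3K, rose from 1.55 and 1.68 CPM to 3.77, 4.25 and 4.27 CPM (1.34 ± 0.24, adjusted p = 0.00290). The cyclin CCNG2 rose by 0.95 ± 0.13 (adjusted p = 0.000559), the apoptosis activator BCL2L11 by 0.53 ± 0.07 (adjusted p = 0.000408) and TXNIP, which curbs glucose uptake, by 0.49 ± 0.08 (adjusted p = 0.00229). PDK4, which inhibits pyruvate dehydrogenase, rose by 1.22 ± 0.21 in NF1KO (adjusted p = 0.00250) and measured -0.16 ± 0.20 in CTRL (adjusted p = 0.550), a difference of 1.38 ± 0.29 (adjusted p = 0.0102). Of the 23 list members, the difference was called higher in 1 and lower in 5, beside 5.68% and 3.71% over all genes. Smaller rises were those of the transcription factors KLF6 (0.42 ± 0.08) and BCL6 (0.42 ± 0.11), the mitophagy kinase PINK1 (0.32 ± 0.08), the autophagy protein GABARAPL1 (0.41 ± 0.09) and the pseudokinase TRIB1 (0.32 ± 0.10), with adjusted p of 0.00389 to 0.0364. The 5 members not called were CDKN1B (0.03 ± 0.09), SESN1 (0.18 ± 0.10), RICTOR (0.13 ± 0.11), SOD2 (0.16 ± 0.10) and GADD45A (-0.14 ± 0.13). In CTRL 17 of the 23 were higher and 0 lower, with a median of 0.95, beside 22.6% and 21.8% over all genes. KLF6 lost the NF1KO call without NF1KO DMSO replicate 2 (adjusted p = 0.0563). BCL6 and PINK1 lost the NF1KO call without NF1KO DMSO replicates 2 or 3 or NF1KO BYL719 replicate 2 (adjusted p of 0.0639 to 0.177). GABARAPL1 lost the NF1KO call without NF1KO DMSO replicate 3 (adjusted p = 0.103). TRIB1 lost the NF1KO call without CTRL DMSO replicates 2 or 3, NF1KO DMSO replicates 2 or 3 or NF1KO BYL719 replicates 1 or 2 and with no low-count filter (adjusted p of 0.0507 to 0.274). PDK4 lost the call of the difference without NF1KO DMSO replicate 3 (adjusted p = 0.0692).

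Promoter windows of RefSeq genes (GRCh38.p14, 250 bases before to 50 bases after the start) were searched on both strands for the FOXO core GTAAACA, which none of the other motifs searched contains. A window was found for 12380 of the tested genes, of which 2.27% held the core. The share was 4.80% of the 1270 genes called higher with a window and 1.26% of the 1113 called lower. In the FOXO list 3 of 18 genes with a window held it, namely TXNIP, DEPP1 and BCL2L11. The sequences are shown because these are the listed FOXO targets whose window has the core. Each runs 5′ to 3′ along the gene's strand over the 250 bases before the start, with the core in capitals. The core begins at position -124 from the start in TXNIP (chr1:145996580-145996829, minus strand), at -180 in DEPP1 (chr10:44978810-44979059, minus strand) and at -223 in BCL2L11 (chr2:111120664-111120913, plus strand).
TXNIP: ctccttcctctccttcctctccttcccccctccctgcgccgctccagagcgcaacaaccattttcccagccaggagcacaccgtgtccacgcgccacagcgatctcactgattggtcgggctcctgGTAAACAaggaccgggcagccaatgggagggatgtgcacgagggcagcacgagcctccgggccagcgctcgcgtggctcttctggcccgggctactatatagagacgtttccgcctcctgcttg
DEPP1: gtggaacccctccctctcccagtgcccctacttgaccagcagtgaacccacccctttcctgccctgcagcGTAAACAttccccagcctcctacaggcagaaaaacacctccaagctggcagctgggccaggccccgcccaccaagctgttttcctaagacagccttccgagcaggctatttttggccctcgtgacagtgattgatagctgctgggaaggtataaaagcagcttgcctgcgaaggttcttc
BCL2L11: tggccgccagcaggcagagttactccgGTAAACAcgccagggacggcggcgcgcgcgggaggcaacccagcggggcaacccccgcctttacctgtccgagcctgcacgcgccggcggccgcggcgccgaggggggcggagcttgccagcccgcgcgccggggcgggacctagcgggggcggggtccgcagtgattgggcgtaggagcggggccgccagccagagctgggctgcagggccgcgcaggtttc
A match is a description of these letters and not a bound site. DEPP1, a protein of autophagy control, rose from 0.646 and 0.453 CPM to 2.81, 2.52 and 2.36 CPM (2.22 ± 0.25, adjusted p = 0.000194), and its position overlaps RASSF4, which has 328% of its counts.

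Genes of the PI3K pathway itself were called in both directions. Of 27 tested PI3K, AKT, SGK and PIM kinases, phosphatases and FOXO factors, 4 were higher and 3 lower, with a median log2 fold change of 0.04, beside 18.7% called over all genes. PIK3CA, the catalytic subunit that BYL719 binds, measured 70.8 and 67.2 CPM in DMSO and 89.0, 84.6 and 67.5 CPM in BYL719 (0.22 ± 0.11, adjusted p = 0.171), with overlap between the groups. SGK3, a kinase related to AKT that is activated at endosomes, rose from 67.0 and 66.8 CPM to 110.4, 104 and 100.4 CPM (0.65 ± 0.07, adjusted p = 0.000176). It measured -0.05 ± 0.06 in CTRL (adjusted p = 0.542), a difference of 0.70 ± 0.10 (adjusted p = 0.000608), and the readthrough gene C8orf44-SGK3 at its position had 101% of its counts. SGK1, a sister kinase, rose by 0.70 ± 0.17 (adjusted p = 0.0129), FOXO3 by 0.49 ± 0.10 (adjusted p = 0.00450), and AKT1 fell by 0.29 ± 0.06 (adjusted p = 0.00463). The regulatory subunit PIK3R3 fell by 0.26 ± 0.08 (adjusted p = 0.0343) and the lipid phosphatase INPPL1 by 0.32 ± 0.10 (adjusted p = 0.0399). In all, 2 members were called higher without NF1KO DMSO replicate 3, and the 3 called lower became 1 without DMSO replicate 2, 0 without DMSO replicate 3 and 1 without BYL719 replicate 3. SGK1 lost the NF1KO call without NF1KO DMSO replicates 2 or 3 (adjusted p of 0.0678 to 0.121). FOXO3 and AKT1 lost the NF1KO call without NF1KO DMSO replicate 3 (adjusted p of 0.0568 to 0.0671). PIK3R3 lost the NF1KO call without NF1KO DMSO replicates 2 or 3 or NF1KO BYL719 replicates 2 or 3 (adjusted p of 0.0799 to 0.190). INPPL1 lost the NF1KO call without CTRL DMSO replicate 3, NF1KO DMSO replicates 2 or 3 or NF1KO BYL719 replicates 1 or 3 and with upper-quartile scaling (adjusted p of 0.0516 to 0.235).

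The other large rises were of genes with varied roles, secreted and matrix proteins among them. TGFB2, a TGF-beta ligand, went from 0.277 and 0.272 CPM to 1.99, 2.12 and 1.78 CPM (2.83 ± 0.17, adjusted p = 5.56e-06), and TIMP3, an inhibitor of matrix proteases, from 7.25 and 7.83 CPM to 39.6, 43.3 and 41.8 CPM (2.46 ± 0.11, adjusted p = 4.03e-07). PIP, a secretory protein of apocrine epithelium, was the most abundant of them, at 189.5 and 163 CPM in DMSO and 850.5, 833 and 893 CPM in BYL719 (2.29 ± 0.22, adjusted p = 8.62e-05). All BYL719 libraries lay above all DMSO libraries for these genes, by the naming rule. Further rises were of KLK10 (2.35 ± 0.31), a kallikrein protease, KRT23 (2.17 ± 0.11), a keratin, SEMA6C (2.08 ± 0.23), a semaphorin, NPNT (1.87 ± 0.12), an integrin ligand of basement membrane, CYBRD1 (1.71 ± 0.18), an iron reductase, and TMC4 (1.66 ± 0.19). The position of TGFB2 overlaps TGFB2-OT1, which has 20.3% of its counts.

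Rises between 1.40 and 1.61 on the log2 scale followed for GTF2IRD2 (1.61 ± 0.14), which has near-identical copies, OLR1 (1.61 ± 0.16), a scavenger receptor, RANBP3L (1.60 ± 0.27), CALCOCO1 (1.58 ± 0.08), an autophagy receptor, MEGF6 (1.56 ± 0.19), NDRG1 (1.53 ± 0.19), NPY1R (1.52 ± 0.13), a neuropeptide Y receptor, FCMR (1.51 ± 0.17), a receptor for IgM, ADHFE1 (1.47 ± 0.13), YPEL2 (1.45 ± 0.16) and MAML2 (1.40 ± 0.14), a Notch co-activator. Adjusted p of these 11 genes lay between 1.14e-06 and 0.00232. RAB31, a trafficking GTPase (1.09 ± 0.07, adjusted p = 6.13e-06), and GLA, the lysosomal alpha-galactosidase (1.07 ± 0.08, adjusted p = 1.95e-05), were among the 10 smallest p of the rises, though a readthrough gene at the position of GLA had 339% of its counts.

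The list for the integrated stress response also holds genes supplying amino acids. Of its 26 genes tested, 17 were called lower and 2 higher, with a median of -0.52, beside 8.47% called lower over all genes; 14 and 12 were lower without NF1KO DMSO replicate 2 and replicate 3. CHAC1, which degrades glutathione, went from 7.66 and 7.83 CPM to 1.96, 1.61 and 2.25 CPM (-2.00 ± 0.20, adjusted p = 9.37e-05). It measured 0.32 ± 0.19 in CTRL (adjusted p = 0.199), a difference between the lines of -2.32 ± 0.28 (adjusted p = 0.000257). SLC7A5, the large neutral amino acid transporter, fell from 813 and 824 CPM to 449.8, 414 and 426 CPM (-0.93 ± 0.07, adjusted p = 1.95e-05), and its partner chain SLC3A2 by 0.54 ± 0.07 (adjusted p = 0.000731).

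Enzymes of serine and asparagine synthesis were in the same list. PHGDH, the first enzyme of serine synthesis, fell by 0.68 ± 0.08 (adjusted p = 0.000193), PSAT1, which acts after it, by 0.85 ± 0.15 (adjusted p = 0.00250), and SHMT2, the mitochondrial serine hydroxymethyltransferase, by 0.57 ± 0.06 (adjusted p = 0.000176). ASNS, asparagine synthetase, went from 102 and 95.6 CPM to 59.2, 47.4 and 55.9 CPM (-0.86 ± 0.12, adjusted p = 0.000777), with no overlap between groups. Its position overlaps the readthrough gene CZ1P-ASNS, which has 99.9% of its counts. TRIB3, a pseudokinase induced by ATF4, fell by 0.80 ± 0.10 (adjusted p = 0.000468). The 2 members that rose were STC2, a secreted glycoprotein (0.48 ± 0.07, adjusted p = 0.000797), and SLC38A2, a neutral amino acid transporter (0.31 ± 0.09, adjusted p = 0.0358). SLC38A2 lost the NF1KO call without CTRL DMSO replicate 2, CTRL BYL719 replicate 3, NF1KO DMSO replicates 2 or 3 or NF1KO BYL719 replicates 1 or 2 (adjusted p of 0.0521 to 0.308).

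The ATF4-CEBP element TGATGNAA was found in 4 of 21 windows of this list, in 2.25% of windows of genes called lower, 2.05% of those called higher and 1.75% of all. It lay in the windows of ASNS, CHAC1, SLC3A2 and ATF3, and ASNS and CHAC1 are shown since both fell by a log2 fold change beyond -0.85. Capitals mark the element, which begins at -68 in ASNS (chr7:97872409-97872658, minus strand) and, on the opposite strand, at -209 in CHAC1 (chr15:40953221-40953470, plus strand).
ASNS: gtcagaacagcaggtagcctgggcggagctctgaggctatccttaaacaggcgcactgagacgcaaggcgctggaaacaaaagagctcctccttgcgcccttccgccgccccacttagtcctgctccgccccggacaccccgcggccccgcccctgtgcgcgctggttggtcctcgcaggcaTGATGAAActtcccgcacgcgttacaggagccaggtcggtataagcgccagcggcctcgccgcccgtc
CHAC1: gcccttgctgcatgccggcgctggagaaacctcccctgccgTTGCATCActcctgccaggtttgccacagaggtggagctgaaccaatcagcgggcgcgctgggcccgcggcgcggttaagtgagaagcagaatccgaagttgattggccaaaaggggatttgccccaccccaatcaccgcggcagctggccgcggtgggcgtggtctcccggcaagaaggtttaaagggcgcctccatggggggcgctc
The element and the other motifs searched do not contain one another.

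Cytosolic tRNA synthetases, which charge tRNAs for translation, were called lower in 12 of 20 and higher in 0, with a median of -0.36. Of the 20, 7 were lower without NF1KO DMSO replicate 3. Over all genes 8.47% were called lower and 10.3% higher. VARS1, for valine, fell from 272 and 269.8 CPM to 171, 181 and 180.3 CPM (-0.61 ± 0.06, adjusted p = 9.36e-05), and YARS1, for tyrosine, by 0.61 ± 0.10 (adjusted p = 0.00136). The position of YARS1 overlaps S100PBP, which has 30.1% of its counts.

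Of 20 tested glutathione and ferroptosis defence genes, 9 were lower and 0 higher (median -0.38), and of 19 NRF2 targets 9 were lower and 1 higher (median -0.35). Without NF1KO DMSO replicate 3 these were 4 and 5 lower. Among all genes tested, 8.47% were called lower and 10.3% higher. NQO1, a quinone reductase and textbook NRF2 target, fell from 419.7 and 416 CPM to 255, 208 and 242 CPM (-0.83 ± 0.10, adjusted p = 0.000342). HMOX1, heme oxygenase, fell by 0.93 ± 0.09 (adjusted p = 0.000108), OSGIN1 by 0.95 ± 0.13 (adjusted p = 0.000685), and the glutathione peroxidase GPX3 by 0.68 ± 0.10 (adjusted p = 0.00106). PIR, an iron-binding nuclear protein, fell by 1.16 ± 0.10 (adjusted p = 3.79e-05), and PIR-FIGF at its position has 65.6% of its counts. The 1 NRF2 list member that rose was the aldo-keto reductase AKR1C3 (0.71 ± 0.22, adjusted p = 0.0412), which has near-identical paralogs and stayed under 2 CPM; no NRF2 target was called higher without any single NF1KO library. The antioxidant response element TGACNNNGC was in 14.9% of windows of genes called higher, 15.2% of those called lower and 15.0% of all. It was in 6 of 16 windows of the glutathione list, 4 of 15 of the NRF2 list and 6 of 21 of the integrated stress response list, shares of 37.5%, 26.7% and 28.6%. AKR1C3 lost the NF1KO call without CTRL DMSO replicates 2 or 3, CTRL BYL719 replicates 2 or 3, NF1KO DMSO replicates 2 or 3 or NF1KO BYL719 replicates 1, 2 or 3 and with no low-count filter or limma-voom (adjusted p of 0.0503 to 0.211).

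Genes of the pentose phosphate pathway and glycolysis were called lower too, beside 8.47% called lower and 10.3% called higher over all genes. The pentose phosphate pathway had 5 of 9 genes lower and 0 higher (median -0.25). The transketolase TKT went from 427 and 430.3 CPM to 248, 256 and 263 CPM (-0.75 ± 0.06, adjusted p = 4.5e-05). Glycolysis genes were lower in 9 of 21 and higher in 0 (median -0.25). GPI, the glucose phosphate isomerase, fell by 0.59 ± 0.07 (adjusted p = 0.000230) and GAPDH by 0.57 ± 0.10 (adjusted p = 0.00313). The pentose phosphate count was 3 without NF1KO DMSO replicate 2, BYL719 replicate 1 or BYL719 replicate 2, and 2 without DMSO replicate 3. The glycolysis count was 3 and 2 without NF1KO DMSO replicate 2 and replicate 3, 14 without CTRL BYL719 replicate 1 and 17 without both first CTRL replicates.

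Lipid synthesis genes were also called lower, beside 8.47% called lower and 10.3% called higher over all genes. Cholesterol synthesis and uptake genes were lower in 10 of 23 and higher in 0 (median -0.31), and 5 and 4 were lower without NF1KO DMSO replicate 2 and replicate 3. MVK, mevalonate kinase, fell by 0.72 ± 0.08 (adjusted p = 0.000230), although MMAB at its position has 129.9% of its counts. Fatty acid and triglyceride synthesis genes were lower in 7 of 20 and higher in 2. ACLY, which makes cytosolic acetyl-CoA, went from 643 and 629.5 CPM to 436, 439 and 424 CPM (-0.56 ± 0.06, adjusted p = 0.000149), and SCD, the stearoyl-CoA desaturase, fell by 0.65 ± 0.09 (adjusted p = 0.000909). PPARG, a nuclear receptor of adipogenesis in the same list, fell by 1.19 ± 0.14 (adjusted p = 0.000331). DGAT2, the last enzyme of triglyceride synthesis (0.43 ± 0.09, adjusted p = 0.00809), and FADS1, a fatty acid desaturase (0.43 ± 0.07, adjusted p = 0.00126), were the 2 that rose; FADS2 at the position of FADS1 has 377% of its counts. Without either NF1KO DMSO library 1 member was called higher. DGAT2 lost the NF1KO call without NF1KO DMSO replicates 2 or 3 (adjusted p of 0.0582 to 0.0917).

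The remaining falls among the 25 largest were of genes with other roles. PLA2G4F, a cytosolic phospholipase, went from 43.2 and 44.1 CPM to 18.6, 18.6 and 19.3 CPM (-1.21 ± 0.07, adjusted p = 2.26e-06), with the groups apart by the naming rule. Falls of 0.84 to 1.18 on the log2 scale were found for IFRD1 (-1.18 ± 0.15), KREMEN2 (-1.11 ± 0.20), a receptor for DKK1, LRP8 (-1.05 ± 0.21), a receptor for reelin, JPH2 (-1.05 ± 0.17), GRAMD1B (-1.04 ± 0.15), a sterol transfer protein, ACER1 (-1.03 ± 0.16), a ceramidase, BLVRB (-0.96 ± 0.16), which reduces biliverdin, MAPK11 (-0.91 ± 0.09), a p38 kinase, B4GALNT1 (-0.90 ± 0.15), which forms gangliosides, UCHL1 (-0.90 ± 0.15), a deubiquitinase, LGALS1 (-0.88 ± 0.17), a galectin, TUBA4A (-0.88 ± 0.07), an alpha-tubulin, ADM2 (-0.87 ± 0.10), a peptide hormone, MAP1A (-0.85 ± 0.21) and APLP1 (-0.84 ± 0.09). Adjusted p of these 15 genes lay between 3.75e-05 and 0.0143. STK16 at the position of TUBA4A has 70.7% of its counts. KREMEN2, LRP8, B4GALNT1 and LGALS1 lost the NF1KO call without NF1KO DMSO replicate 3 (adjusted p of 0.0542 to 0.0598). MAP1A lost the NF1KO call without NF1KO DMSO replicates 2 or 3 or NF1KO BYL719 replicate 1 (adjusted p of 0.0510 to 0.133).

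Hormone receptors and luminal transcription factors were called higher in 7 of 19 and lower in 1 (median 0.20, and 0.12 without NF1KO BYL719 replicate 2). Over all genes 10.3% were called higher and 8.47% lower in NF1KO. PGR, the progesterone receptor, measured 565 and 589 CPM in DMSO and 1256, 1179 and 1008 CPM in BYL719 (0.99 ± 0.13, adjusted p = 0.000422). ESR1, the estrogen receptor, went from 181 and 181 CPM to 269, 251 and 239 CPM (0.48 ± 0.09, adjusted p = 0.00327) and measured 0.05 ± 0.08 in CTRL (adjusted p = 0.670), a difference of 0.44 ± 0.12 (adjusted p = 0.0350). The 1 member that fell was SPDEF, an ETS factor (-0.64 ± 0.16, adjusted p = 0.0176). In CTRL 11 of the 19 were higher and 0 lower (median 0.37), beside 22.6% and 21.8% over all genes. The difference was called higher in 1 of the 19 and lower in 5, beside 5.68% and 3.71% over all genes. Estrogen receptor targets were higher in 7 of 20 and lower in 0 (median 0.16, and 0.29 without NF1KO DMSO replicate 3). The effect in NF1KO was above that in CTRL in 7 of them by the test of the difference. This number was 3 without NF1KO DMSO replicate 2 and 2 without its replicate 3. For all genes tested the difference was called higher in 5.68%. MYB, a proto-oncogene and estrogen target, rose by 0.96 ± 0.09 (adjusted p = 7.95e-05). Luminal genes called higher numbered 2, 3, 4 and 4 without NF1KO DMSO replicate 2, DMSO replicate 3, BYL719 replicate 1 and BYL719 replicate 2, and estrogen receptor targets 4 without DMSO replicate 2. SPDEF lost the NF1KO call without NF1KO DMSO replicates 2 or 3 or NF1KO BYL719 replicates 1 or 2 (adjusted p of 0.0600 to 0.124). ESR1 lost the call of the difference without CTRL DMSO replicates 1 or 3, CTRL BYL719 replicates 2 or 3, NF1KO DMSO replicates 2 or 3 or NF1KO BYL719 replicates 1 or 2 (adjusted p of 0.0645 to 0.146).

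Secreted and surface products of differentiated epithelium were higher in 12 of 27 and lower in 2, beside 10.3% and 8.47% over all genes. Without NF1KO DMSO replicate 2, 7 were higher. The median of these products was 0.59, 0.33 with no filter on low counts and 0.34 when a gene needed 1 CPM or more in 3 or more libraries. Beside PIP, KLK10 and TIMP3, they included CEACAM6, an adhesion molecule (1.06 ± 0.17, adjusted p = 0.00181). The 2 that fell were KLK5, a kallikrein (-0.73 ± 0.22, adjusted p = 0.0352), and S100A9, a calcium-binding protein (-0.57 ± 0.17, adjusted p = 0.0325). In CTRL KLK5 rose by 3.03 ± 0.25, a difference of -3.77 ± 0.33 (adjusted p = 3.61e-05). KLK5 and S100A9 lost the NF1KO call without NF1KO DMSO replicates 2 or 3 or NF1KO BYL719 replicates 1 or 2 (adjusted p of 0.0586 to 0.297).

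MYC and MAX network factors were higher in 6 of 13 and lower in 1. MXI1, a MYC antagonist, rose by 0.86 ± 0.09 (adjusted p = 0.000176) and MYC by 0.57 ± 0.10 (adjusted p = 0.00250); 3 and 2 were called higher without NF1KO DMSO replicate 2 and replicate 3. The 1 that fell was MLX (-0.32 ± 0.08, adjusted p = 0.0160). ERK output genes were higher in 3 and lower in 4 of 21, beside 10.3% called higher and 8.47% called lower over all genes. PHLDA1 rose by 1.22 ± 0.13 (adjusted p = 0.000176) and EPHA4, an ephrin receptor, by 0.92 ± 0.08 (adjusted p = 4.76e-05), while the feedback inhibitors SPRY4 (-0.67 ± 0.16, adjusted p = 0.0145) and DUSP4 (-0.37 ± 0.08, adjusted p = 0.00872) fell. The ETS factor ETV5 (-0.66 ± 0.14, adjusted p = 0.00791) and the phosphatase DUSP5 (-0.25 ± 0.06, adjusted p = 0.0155) were also lower. The 4 ERK output genes called lower became 0 and 1 without NF1KO DMSO replicate 2 and replicate 3. MLX and DUSP5 lost the NF1KO call without NF1KO DMSO replicates 2 or 3 or NF1KO BYL719 replicate 2 (adjusted p of 0.0511 to 0.144). SPRY4 lost the NF1KO call without NF1KO DMSO replicates 2 or 3 or NF1KO BYL719 replicate 1 (adjusted p of 0.0590 to 0.112). DUSP4 lost the NF1KO call without NF1KO DMSO replicate 2 (adjusted p = 0.107). ETV5 lost the NF1KO call without NF1KO DMSO replicates 2 or 3 (adjusted p of 0.0702 to 0.0795).

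Cytosolic ribosomal proteins were higher in 6 of 38 and lower in 0, with a median of 0.25 that was 0.15 without NF1KO BYL719 replicate 3. Respiratory chain subunits were lower in 9 of 38 and higher in 0, with a median of -0.22. Over all genes 10.3% were called higher and 8.47% lower. Ribosomal RNA genes took a larger share of counts in every NF1KO BYL719 library than in both DMSO libraries, and its part in these results was not tested. The ribosomal protein count was 1, 0, 2, 2 and 1 without NF1KO DMSO replicate 2, DMSO replicate 3, BYL719 replicate 1, BYL719 replicate 2 and BYL719 replicate 3, and 15 and 3 without CTRL BYL719 replicate 1 and replicate 3; without both first CTRL replicates it was 22. The respiratory chain count was 1 without either NF1KO DMSO library, 5 without BYL719 replicate 1, 3 without BYL719 replicate 2 and 22 without both first CTRL replicates.

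The remaining lists are given by their counts. Receptor tyrosine kinases were higher in 6 of 17 and lower in 2, the 2 being FGFR4 (-0.70 ± 0.15) and EPHA1 (-0.60 ± 0.07), hypoxia response genes higher in 6 of 18 and lower in 1, and genes of estrogen synthesis and inactivation lower in 7 of 14 and higher in 0. Called higher and lower were 1 and 5 of 24 mTOR complex genes, 2 and 3 of 17 ligands and binding proteins, 1 and 3 of 23 G1 genes, 3 and 2 of 19 fatty acid oxidation genes, and 4 and 2 of 32 lysosome and autophagy genes. They were 2 and 1 of 29 interferon response genes, 3 and 3 of 22 TGF-beta pathway genes, 4 and 2 of 25 matrix and integrin genes, 4 and 2 of 19 apoptosis regulators and 2 and 2 of 18 p53 targets. They were 0 and 2 of 28 ribosome biogenesis genes, 4 and 1 of 15 snoRNA hosts, 3 and 0 of 17 clock genes, 1 and 1 of 16 histone genes and 0 and 0 of 8 basal markers. Summed over these 18 lists, 46 of 361 members tested were called higher (12.7%) and 39 lower (10.8%), beside 10.3% and 8.47% over all genes. Leaving out NF1KO DMSO replicate 2 gave 26 and 19, leaving out its replicate 3 gave 25 and 9, and leaving out NF1KO BYL719 replicate 2 gave 35 and 25. Without both first CTRL replicates the sums were 78 and 74. Of the 36 counts, 23 moved by more than 1.5 times when at least 1 of the 11 libraries was left out. The 6 receptors called higher became 2, 3 and 3 without NF1KO DMSO replicate 2, DMSO replicate 3 and BYL719 replicate 2, and the 5 mTOR genes called lower 3, 1 and 3. Without NF1KO DMSO replicate 3, 3 hypoxia and 1 lysosome and autophagy genes were higher, and 1 TGF-beta pathway gene was lower. The 4 snoRNA hosts became 1 without either NF1KO DMSO library and 2 without BYL719 replicate 3, and the 3 clock genes 0 without either NF1KO DMSO library. The 2 interferon response genes called higher became 7 and 4 without CTRL BYL719 replicate 1 and replicate 2, and 0 without either NF1KO DMSO library. G1 genes called lower were 6 without CTRL BYL719 replicate 1 and 1 without NF1KO DMSO replicate 3, and ribosome biogenesis genes called lower 4, 5 and 6 without CTRL DMSO replicate 1, CTRL DMSO replicate 3 and CTRL BYL719 replicate 1. The estrogen synthesis and inactivation count became 0 without either NF1KO DMSO library, 4, 2 and 4 without BYL719 replicates 1, 2 and 3, and 4 without CTRL DMSO replicate 2. FGFR4 lost the NF1KO call without NF1KO DMSO replicate 3 (adjusted p = 0.0847).

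**Figure D3:**
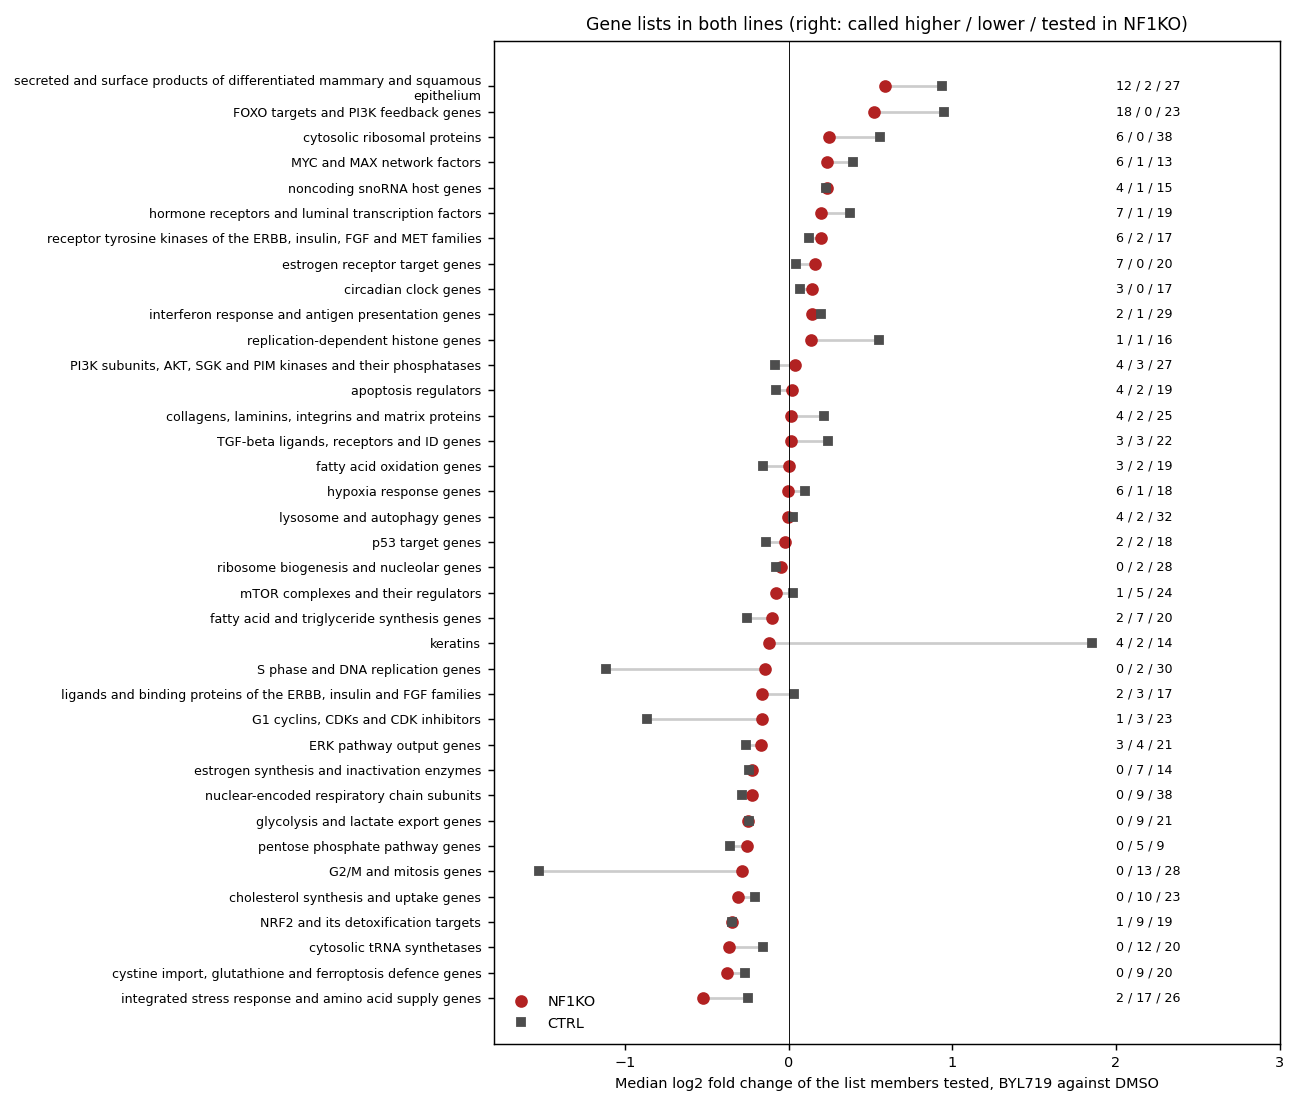
Rows are gene lists and the x axis is the median log2 fold change of the tested members, BYL719 against DMSO, as red circles for NF1KO and dark squares for CTRL; the numbers at the right are members called higher, called lower and tested in NF1KO. FOXO targets lie at 0.52 in NF1KO and 0.95 in CTRL, G2/M genes at -0.29 and -1.52, and keratins at -0.12 and 1.85.

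The CTRL line shows where NF1KO differed. NF1KO had fewer DMSO libraries (2) than CTRL, so the numbers of genes called in the lines are not of equal power. In CTRL 7132 genes (44.4%) were called, 3628 higher (22.6%) and 3504 lower (21.8%), and 5.14% rose and 4.04% fell by more than 2-fold. Of the 3014 genes called in NF1KO, 2395 were called in the same direction in CTRL, which is 79.5% of the NF1KO calls and 33.6% of the CTRL calls, and 47 in the opposite direction. The difference of the effects passed the test for 1510 genes (9.39%), of which 914 (5.68%) were higher and 596 (3.71%) lower in NF1KO, 1.95% and 1.04% by more than 2-fold. Among the 2395 shared genes the difference passed for 304, with the smaller effect in NF1KO in 290 of them. It passed for 1030 of the 4690 genes called in CTRL and not in NF1KO. Of the 572 genes called in NF1KO and not in CTRL, it passed for 113. Genes higher for the difference numbered 526 and 490, and lower 246 and 250, without NF1KO DMSO replicate 2 and replicate 3, and genes lower for it 380 without CTRL DMSO replicate 2 and 916 without CTRL BYL719 replicate 1. Without both first CTRL replicates 1389 were higher and 1016 lower for the difference.

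Cell cycle genes fell by less in NF1KO than in CTRL. Over all genes 8.47% were called lower in NF1KO and 21.8% in CTRL, and 5.68% were higher for the difference. Of 28 tested G2/M genes 13 were lower in NF1KO, with a median of -0.29, against 28 of 28 in CTRL, with a median of -1.52, and the effect was less negative in NF1KO by the test in 26. CDC20, which activates the anaphase-promoting complex, went from 179 and 189 CPM to 109.7, 108 and 125 CPM in NF1KO (-0.69 ± 0.08, adjusted p = 0.000319) and changed by -1.85 ± 0.08 in CTRL, a difference of 1.17 ± 0.11 (adjusted p = 7.66e-05). The mitotic kinase PLK1 fell by 0.56 ± 0.07 in NF1KO and the difference was 1.20 ± 0.09 (adjusted p = 2.62e-05). Of 30 S phase genes 2 were lower in NF1KO, with a median of -0.15, against 30 of 30 in CTRL, with a median of -1.12, and 28 differed. The 2 were thymidine kinase TK1 (-0.32 ± 0.09, adjusted p = 0.0311) and the helicase subunit MCM5 (-0.21 ± 0.07, adjusted p = 0.0474). PCLAF, a PCNA-binding protein, measured 112 and 109 CPM in DMSO and 120.2, 106 and 119 CPM in BYL719, so that the groups overlapped, while it changed by -1.53 ± 0.08 in CTRL (difference 1.58 ± 0.12, adjusted p = 2.21e-05). The G2/M count was 5, 2, 8 and 6 without NF1KO DMSO replicate 2, DMSO replicate 3, BYL719 replicate 1 and BYL719 replicate 2. The S phase count was 0 without any 1 of those 4, 5 and 7 without CTRL DMSO replicate 1 and CTRL BYL719 replicate 1, and 1 without CTRL DMSO replicate 2, CTRL DMSO replicate 3 or CTRL BYL719 replicate 2. Without both first CTRL replicates 11 S phase genes were lower in NF1KO, and the difference passed for 28 of 28 G2/M and 30 of 30 S phase genes. TK1 lost the NF1KO call without NF1KO DMSO replicates 2 or 3 or NF1KO BYL719 replicates 1 or 2 (adjusted p of 0.0817 to 0.192). MCM5 lost the NF1KO call without CTRL DMSO replicates 2 or 3, CTRL BYL719 replicates 2 or 3, NF1KO DMSO replicates 2 or 3 or NF1KO BYL719 replicates 1, 2 or 3 and with upper-quartile scaling or no low-count filter (adjusted p of 0.0527 to 0.211).

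Kinesin genes were among the 12 largest positive differences under the same minimum of 2 for the mean log2 CPM. KIF18A, a kinesin of chromosome alignment, measured -0.08 ± 0.14 in NF1KO and -1.54 ± 0.13 in CTRL (adjusted p of the difference = 0.000601). KIF15, a spindle kinesin, measured -0.14 ± 0.30 and -1.71 ± 0.27 (0.0303), and KIF4B, a retrocopy close in sequence to KIF4A, -0.24 ± 0.19 and -1.68 ± 0.18 (0.00405). CDC25C, the phosphatase that activates CDK1, measured 0.02 ± 0.09 and -1.50 ± 0.08 (2.61e-05), and FAM53C at its position has 464% of its counts. The others were ACOX2, a peroxisomal oxidase that fell in both lines (-0.62 ± 0.09 and -2.30 ± 0.10), EGR3, an immediate early factor (0.10 ± 0.24 and -1.76 ± 0.30), NEURL1B (0.23 ± 0.09 and -1.25 ± 0.08), GATA4 (0.25 ± 0.12 and -1.70 ± 0.12) and GPC3, a glypican (1.28 ± 0.16 and -0.26 ± 0.14). HAUS1, PCLAF and GFRA1 completed the 12. KIF15 lost the call of the difference without CTRL BYL719 replicates 2 or 3, NF1KO DMSO replicates 2 or 3 or NF1KO BYL719 replicates 1, 2 or 3 (adjusted p of 0.0545 to 0.145). EGR3 lost the call of the difference without NF1KO DMSO replicate 2 (adjusted p = 0.0508).

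Most keratins rose in CTRL, and fewer were called in NF1KO. In CTRL 13 of 14 were higher, with a median of 1.85, and in NF1KO 4 were higher and 2 lower, with a median of -0.12. The effect in NF1KO was lower by the test in 10. Over all genes 22.6% were higher in CTRL, 10.3% higher and 8.47% lower in NF1KO, and 3.71% lower for the difference. KRT4 and KRT23 rose in both lines, as did KRT13, a mucosal keratin (1.37 ± 0.22 in NF1KO, 3.22 ± 0.17 in CTRL, difference -1.85 ± 0.29, adjusted p = 0.00154), and KRT15 (0.72 ± 0.13 and 2.11 ± 0.11, difference -1.39 ± 0.17, adjusted p = 0.000328). KRT81, a hair keratin, measured 2.09 and 2.19 CPM in DMSO and 0.891, 1.08 and 1.16 CPM in BYL719 in NF1KO (-1.03 ± 0.23, adjusted p = 0.00850), and changed by 1.87 ± 0.21 in CTRL, a difference of -2.90 ± 0.31 (adjusted p = 0.000123). It shares sequence and position with KRT86, which has 76.3% of its counts. KRT7, a simple epithelial keratin, fell by 0.60 ± 0.13 in NF1KO (adjusted p = 0.00906) and differed by -1.10 ± 0.18 (adjusted p = 0.00214). The 2 keratins called lower became 1 and 0 without NF1KO DMSO replicate 2 and replicate 3. KRT15 and KRT7 lost the NF1KO call without NF1KO DMSO replicate 3 (adjusted p of 0.0605 to 0.0913). KRT81 lost the NF1KO call without NF1KO DMSO replicates 2 or 3 (adjusted p of 0.0504 to 0.0761).

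**Figure D4:**
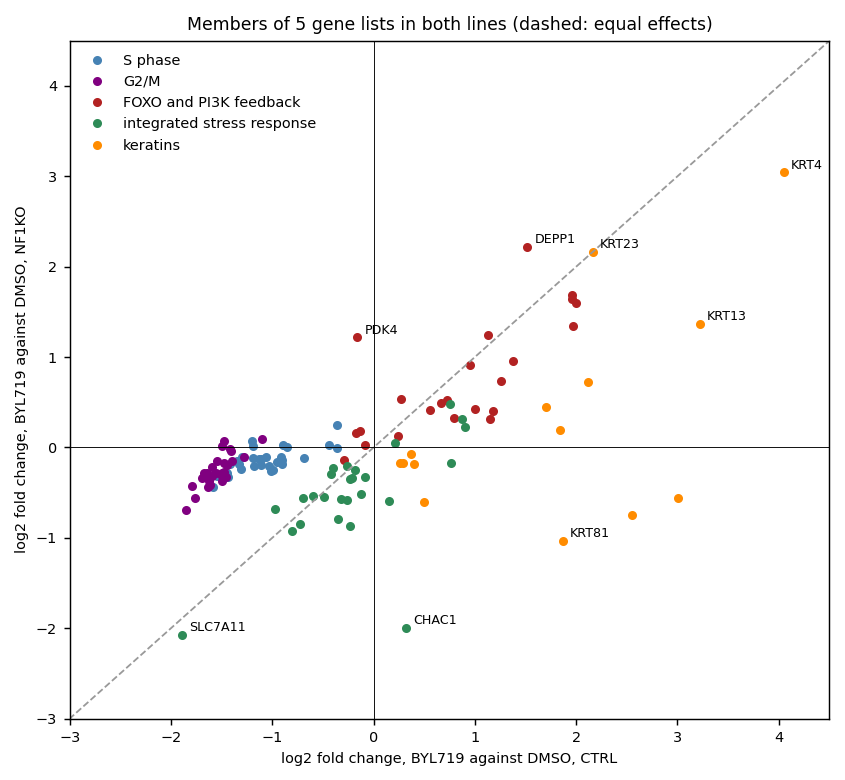
Points are the tested members of 5 gene lists, with the log2 fold change of BYL719 against DMSO in CTRL on the x axis and in NF1KO on the y axis; the dashed line marks equal effects. S phase and G2/M genes lie above the line, with medians of -1.12 and -1.52 in CTRL and -0.15 and -0.29 in NF1KO, and most keratins lie below it.

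The 12 largest negative differences among genes whose mean log2 CPM reached 2 were of genes that rose in CTRL. CPA4, a carboxypeptidase, measured 0.33 ± 0.10 in NF1KO and 2.80 ± 0.10 in CTRL (adjusted p of the difference = 9e-06). HSD17B1, which forms estradiol, measured 0.26 ± 0.11 and 2.49 ± 0.10 (1.24e-05), and LOC108783654 at its position has 114% of its counts. L1CAM, an adhesion molecule, stood at 128 and 125 CPM in DMSO and 107, 122 and 124 CPM in BYL719 in NF1KO and rose by 1.95 ± 0.11 in CTRL (2.21e-05). TRIM29 (0.06 ± 0.13 in NF1KO and 2.01 ± 0.11 in CTRL), TM4SF1 (-0.21 ± 0.14 and 1.63 ± 0.12) and HS3ST3B1 (-0.39 ± 0.16 and 1.45 ± 0.15) were not called in NF1KO. Nor were SPNS2, a sphingosine phosphate exporter (-0.35 ± 0.12 and 1.73 ± 0.10, with MYBBP1A at its position at 406% of its counts), and the BMP target ID3 (-0.02 ± 0.14 and 1.62 ± 0.13). KRT80 (0.20 ± 0.09 and 1.84 ± 0.08) and the collagen COL5A1 (0.52 ± 0.26 and 2.10 ± 0.19) were not called in NF1KO either. The retinoic acid-forming ALDH1A3 (0.46 ± 0.12 and 2.03 ± 0.10) and the netrin NTN4 (0.81 ± 0.19 and 2.48 ± 0.17) were called higher in NF1KO, by less than in CTRL. CPA4 lost the NF1KO call without CTRL DMSO replicate 3, CTRL BYL719 replicates 2 or 3, NF1KO DMSO replicates 2 or 3 or NF1KO BYL719 replicates 1, 2 or 3 and with no low-count filter (adjusted p of 0.0527 to 0.276). ALDH1A3 lost the NF1KO call without NF1KO DMSO replicate 3 or NF1KO BYL719 replicates 1 or 2 (adjusted p of 0.0672 to 0.261). NTN4 lost the NF1KO call without NF1KO DMSO replicate 3 (adjusted p = 0.138). COL5A1 lost the call of the difference without NF1KO DMSO replicate 3 (adjusted p = 0.0849).

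Genes called in both lines with opposite signs numbered 47, of which the 10 with the smallest adjusted p of the difference are named. HAUS1, a subunit of the augmin complex of the spindle, measured 24.7 and 24.7 CPM in DMSO and 49.9, 50.4 and 57.1 CPM in BYL719 in NF1KO (1.09 ± 0.08, adjusted p = 1.97e-05) and fell by 0.73 ± 0.07 in CTRL. GFRA1, the GDNF receptor and an estrogen-responsive gene, measured 6.85 and 6.81 CPM and 16.3, 14.8 and 14.9 CPM (1.17 ± 0.09, adjusted p = 1.97e-05) and fell by 0.28 ± 0.07 in CTRL. In both, every BYL719 library of NF1KO lay above both DMSO libraries. MAOA, a monoamine oxidase (0.87 ± 0.12 and -0.51 ± 0.13), PYGL, glycogen phosphorylase (0.57 ± 0.07 and -0.34 ± 0.07), A4GALT (0.48 ± 0.12 and -0.69 ± 0.12) and FADS1 (0.43 ± 0.07 and -0.22 ± 0.06) were likewise higher in NF1KO and lower in CTRL. ZYX, a focal adhesion protein (-0.33 ± 0.09 and 0.79 ± 0.08), SLC43A2, an amino acid transporter (-0.37 ± 0.08 and 0.43 ± 0.07), C2CD2L (-0.40 ± 0.08 and 0.34 ± 0.07) and GRHL3, an epithelial factor (-0.45 ± 0.14 and 1.07 ± 0.13), were lower in NF1KO and higher in CTRL. FADS2 and STPG1 at the positions of FADS1 and GRHL3 have 377% and 146% of their counts. A4GALT lost the NF1KO call without NF1KO DMSO replicates 2 or 3 or NF1KO BYL719 replicates 2 or 3 (adjusted p of 0.0531 to 0.181). ZYX lost the NF1KO call without NF1KO DMSO replicates 2 or 3 or NF1KO BYL719 replicates 1 or 2 (adjusted p of 0.0514 to 0.179). SLC43A2 lost the NF1KO call without NF1KO DMSO replicates 2 or 3 (adjusted p of 0.0594 to 0.105). C2CD2L lost the NF1KO call without NF1KO DMSO replicate 3 (adjusted p = 0.0549). GRHL3 lost the NF1KO call without CTRL DMSO replicates 2 or 3, CTRL BYL719 replicate 2, NF1KO DMSO replicates 2 or 3 or NF1KO BYL719 replicates 1, 2 or 3 and with upper-quartile scaling, the 1 CPM filter or limma-voom (adjusted p of 0.0528 to 0.257).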

How the data were processed

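RNA was sequenced from stranded poly(A) libraries as single reads of 76 bases, per the labels' protocols. The submitters' processing notes name hg38, STAR 2.5.2a, SAMtools 1.7, Picard 2.9.2 and edgeR; the counting tool and its strand setting are not given in the sources used here. The deposited values were raw counts per Entrez gene (27864 genes). Of these, 16081 passed filterByExpr and were tested with edgeR 4.0.16 in R 4.3.3: TMM scaling, quasi-likelihood test, 4 group means over 11 libraries, 7 residual degrees of freedom. The SE is the log2 fold change divided by the square root of F. Positions are from RefSeq (GRCh38.p14), matched for 27740 identifiers.

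Named genes were the 25 largest rises and falls, the 10 smallest p per direction (called, mean log2 CPM of at least 2, groups apart), up to 6 members per list, the 12 largest differences per direction, and up to 10 called with opposite signs; some of these are not reported here. Among these, list examples were chosen with values known. The members, the 41 lists, the genes drawn in figures and those whose promoter is shown were chosen with earlier results of these data known. Lists are described by counts and medians, without a test. Overlapping genes with at least 20% of a gene's counts are pointed out.

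The fit was tested on simulated data. Same-number CTRL libraries, which the design does not call pairs, correlated in their deviations from group means at 0.59, 0.34 and 0.32 across genes; in CTRL the block moved no count by over 1.5 times. Alternatives used DESeq2 1.42.0, limma 3.58.1, other scalings and filters, replicate blocks and left-out libraries. Figures were drawn with matplotlib 3.10.9.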

Additional observations from a re-analysis of the deposited data

Results flagged for a closer look

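The results below are those of named genes whose BYL719 effect in NF1KO differed from that in CTRL by the test of the difference itself (edgeR, adjusted p under 0.05). Each value is the log2 fold change in NF1KO minus that in CTRL with its SE. No group had 4 libraries, the smallest number in which a single library was examined for standing apart.

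Genes with a negative difference, that is a lower log2 fold change in NF1KO than in CTRL, come first. For a gene that fell in both lines, a negative difference is a larger fall in NF1KO. The differences were -3.77 ± 0.33 for KLK5, -2.90 ± 0.31 for KRT81, -1.85 ± 0.29 for KRT13, -1.64 ± 0.12 for KRT80, -1.39 ± 0.17 for KRT15 and -1.10 ± 0.18 for KRT7. They were -2.46 ± 0.14 for CPA4, -2.23 ± 0.14 for HSD17B1, -2.05 ± 0.15 for L1CAM, -1.96 ± 0.17 for TRIM29, -1.85 ± 0.18 for TM4SF1 and -1.52 ± 0.19 for GRHL3. SPNS2 (-2.08 ± 0.16), HS3ST3B1 (-1.84 ± 0.22), NTN4 (-1.67 ± 0.25), ID3 (-1.64 ± 0.20), COL5A1 (-1.57 ± 0.32), ALDH1A3 (-1.57 ± 0.16), OLR1 (-1.32 ± 0.20), RANBP3L (-1.30 ± 0.35), ZYX (-1.12 ± 0.12), TIMP3 (-1.05 ± 0.14) and SPDEF (-0.84 ± 0.22) also had negative differences. RANBP3L lost the call of the difference without CTRL DMSO replicates 1 or 2, CTRL BYL719 replicate 3, NF1KO DMSO replicates 2 or 3 or NF1KO BYL719 replicates 1, 2 or 3 and with limma-voom (adjusted p of 0.0569 to 0.149). SPDEF lost the call of the difference without CTRL DMSO replicates 1 or 2, CTRL BYL719 replicates 2 or 3, NF1KO DMSO replicates 2 or 3 or NF1KO BYL719 replicates 1 or 2 (adjusted p of 0.0508 to 0.124).

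Negative differences were also found for CHAC1 (-2.32 ± 0.28), ASNS (-0.63 ± 0.17), SLC38A2 (-0.56 ± 0.12) and SLC43A2 (-0.79 ± 0.11). In the FOXO list, PINK1 (-0.83 ± 0.11), GABARAPL1 (-0.77 ± 0.12), BCL6 (-0.58 ± 0.15) and TRIB1 (-0.47 ± 0.13) had a lower log2 fold change in NF1KO, as had the receptor FGFR4 (-1.14 ± 0.21). The same sign was found for ADM2 (-0.86 ± 0.13), IFRD1 (-0.78 ± 0.21), C2CD2L (-0.74 ± 0.10), MYC (-0.57 ± 0.13), IRS1 (-0.52 ± 0.10), MAPK11 (-0.51 ± 0.12), HMOX1 (-0.49 ± 0.13) and ACLY (-0.35 ± 0.08). Larger falls in NF1KO were those of IFRD1 (-1.18 in NF1KO and -0.39 in CTRL) and MAPK11 (-0.91 and -0.40). So were those of HMOX1 (-0.93 and -0.44), ACLY (-0.56 and -0.21) and ASNS (-0.86 and -0.23). ADM2 measured -0.87 and -0.01, and C2CD2L -0.40 and 0.34. MYC (0.57 and 1.14) and IRS1 (0.73 and 1.26) rose by less in NF1KO. ASNS lost the call of the difference without CTRL DMSO replicate 3, CTRL BYL719 replicate 2, NF1KO DMSO replicates 2 or 3 or NF1KO BYL719 replicate 2 (adjusted p of 0.0628 to 0.153). SLC38A2 lost the call of the difference without NF1KO DMSO replicate 2 (adjusted p = 0.0997). BCL6 lost the call of the difference without CTRL BYL719 replicates 2 or 3, NF1KO DMSO replicates 2 or 3 or NF1KO BYL719 replicates 1 or 3 (adjusted p of 0.0526 to 0.128). TRIB1 lost the call of the difference without CTRL DMSO replicates 1, 2 or 3, NF1KO DMSO replicates 2 or 3 or NF1KO BYL719 replicates 1, 2 or 3 and with no low-count filter (adjusted p of 0.0595 to 0.209). IFRD1 lost the call of the difference without CTRL DMSO replicates 2 or 3, CTRL BYL719 replicate 2, NF1KO DMSO replicates 2 or 3 or NF1KO BYL719 replicates 1, 2 or 3 (adjusted p of 0.0550 to 0.155). MYC lost the call of the difference without NF1KO DMSO replicates 2 or 3 (adjusted p of 0.0708 to 0.0849). IRS1 lost the call of the difference without NF1KO DMSO replicate 3 (adjusted p = 0.0597). MAPK11 and ACLY lost the call of the difference without CTRL DMSO replicate 2 or NF1KO DMSO replicates 2 or 3 (adjusted p of 0.0538 to 0.125). HMOX1 lost the call of the difference without CTRL DMSO replicates 1 or 3, CTRL BYL719 replicates 2 or 3, NF1KO DMSO replicates 2 or 3 or NF1KO BYL719 replicate 2 and with no low-count filter (adjusted p of 0.0567 to 0.132).

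Positive differences, with lower log2 fold changes in CTRL than in NF1KO, were 1.58 ± 0.12 for PCLAF, 1.58 ± 0.41 for KIF15, 1.52 ± 0.12 for CDC25C, 1.46 ± 0.20 for KIF18A, 1.44 ± 0.26 for KIF4B, 1.23 ± 0.12 for TK1, 1.20 ± 0.09 for PLK1, 1.17 ± 0.11 for CDC20 and 0.82 ± 0.09 for MCM5. HAUS1, which rose in NF1KO, stood at 1.81 ± 0.11.

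Other positive differences were found for GATA4 (1.95 ± 0.17), EGR3 (1.86 ± 0.39), ACOX2 (1.68 ± 0.14), GPC3 (1.54 ± 0.21), NEURL1B (1.49 ± 0.13), GFRA1 (1.45 ± 0.11), PDK4 (1.38 ± 0.29), MAOA (1.37 ± 0.17), A4GALT (1.17 ± 0.17), B4GALNT1 (1.04 ± 0.22) and SGK1 (1.01 ± 0.22). Smaller ones were those of PYGL (0.91 ± 0.10), FCMR (0.86 ± 0.21), GLA (0.74 ± 0.10), SGK3 (0.70 ± 0.10), APLP1 (0.70 ± 0.13), PIR (0.67 ± 0.13), FADS1 (0.65 ± 0.09), GPX3 (0.50 ± 0.14) and ESR1 (0.44 ± 0.12). B4GALNT1, SGK1 and PIR lost the call of the difference without NF1KO DMSO replicate 2 (adjusted p of 0.0583 to 0.0764). FCMR lost the call of the difference without CTRL DMSO replicate 3, CTRL BYL719 replicate 2, NF1KO DMSO replicates 2 or 3 or NF1KO BYL719 replicate 1 (adjusted p of 0.0501 to 0.109). GPX3 lost the call of the difference without CTRL DMSO replicates 2 or 3, CTRL BYL719 replicate 3, NF1KO DMSO replicates 2 or 3 or NF1KO BYL719 replicates 2 or 3 (adjusted p of 0.0776 to 0.166).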

How the results depend on the processing

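No named gene reversed its sign in a call under any alternative. RLE and upper-quartile scaling, no filter on low counts, DESeq2, limma-voom and a fit with only the compared libraries left the counts of genes called in NF1KO within 1.5 times. When a gene needed 1 CPM or more in 3 or more libraries, 214 genes were higher and 38 lower by more than 2-fold. With the replicate number as a block, 2503 genes were higher and 2161 lower in NF1KO. With the block within each genotype these were 3505 and 3239, and the difference between the lines was called higher in 2403 and lower in 1942. That NF1KO effect rested on replicates 2 and 3 of each group, since NF1KO BYL719 replicate 1 had no DMSO library of its number. Same-number NF1KO libraries correlated in their deviations at 0.08 and 0.15 across genes, so their numbers were not taken as pairs. With these 2 blocks, S phase genes called lower in NF1KO numbered 10 and 15 in place of 2, and ribosomal proteins called higher 28 and 31 in place of 6. These were 7 and 12 with DESeq2 and 8 and 14 with only the compared libraries, and S phase genes were 4 with RLE and 1 with upper-quartile scaling. The keratin median was -0.07 with the replicate block. Without both CTRL number-1 libraries, 2760 genes were higher and 2546 lower in NF1KO, and 1389 and 1016 for the difference. Leaving out 1 library at a time gave 474 to 2098 genes higher and 321 to 1847 lower in NF1KO, 168 to 368 and 36 to 83 by more than 2-fold, and 490 to 1232 higher and 246 to 916 lower for the difference; in CTRL it gave 3078 to 3817 higher and 2901 to 3642 lower. Leaving out an NF1KO DMSO library left 1, assumed to vary like the other groups. At an unadjusted p under 0.05, 5326 genes passed in NF1KO. Libraries held at least 53283945 counts, and the genes with too few counts for the filter were not tested.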
